A study of Mus musculus with 8 samples.

Results

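The 10 genes described here encode enzymes of glycolysis and both main subunits of lactate dehydrogenase: Hk1, Gpi1, Pfkm, Aldoa, Gapdh, Pgk1, Pgam1, Eno2, Ldha and Ldhb. They were picked by gene name from the 23335 gene names of the count table, and all 10 were present. Glycolysis splits glucose into pyruvate, with a small yield of ATP and of NADH. Lactate dehydrogenase then joins pyruvate and lactate: it is a tetramer built from A subunits (Ldha) and B subunits (Ldhb), and enzyme rich in A favours making lactate while enzyme rich in B favours turning lactate into pyruvate. In brain, fast-spiking interneurons have a high demand for ATP, and neurons are known for enzyme rich in B.

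Messenger RNA was counted in single interneurons picked by hand from mouse frontal cortex, as varietal tags that each mark 1 molecule (UMI). Chandelier cells (ChC), which synapse on the first stretch of pyramidal cell axons, came from Nkx2.1-CreER; Ai14 mice given tamoxifen at embryonic day 17.5, while the parvalbumin cells (Pv), mostly basket cells, came from Pv-ires-Cre; Ai14 mice. Each type had 4 library batches of 16 cells from 2 animals labelled female: ChC batches 1 and 2 from animal 1 (postnatal day 31), batches 3 and 4 from animal 2 (day 32), Pv batches 5 and 6 from animal 3 (day 29), and batches 7 and 8 from animal 4 (day 35). Ai14 is a red fluorescent reporter that marks each cell with a history of Cre activity, and the labels give the types separate flow cells, so cell type, mouse line and sequencing run cannot be told apart; on each flow cell, lane 1 held one animal and lane 2 the other. The titles call the mice of both types WT, beside these Cre and reporter alleles. Of the 128 cells, 126 gave counts, 63 of each type.

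Depth differed between batches. Batches 1 to 4 (ChC) contained 448121, 556405, 2460679 and 1123083 UMI. Batches 5 to 8 (Pv) contained 392580, 430860, 316540 and 797177 UMI. Batch 3 was the deepest, and 1 cell gave between 11.7% and 23.9% of the UMI of its batch. Levels are given below as UMI of the gene out of 1000000 UMI of the batch (CPM).

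The labels were checked against marker genes. Pvalb, the calcium buffer that names the Pv cells, had 147, 196, 108 and 86.4 CPM in the ChC batches and 1643, 763.6, 669.7 and 1217 CPM in the Pv batches. Erbb4 had the highest mean over all batches of the 10 GABA neuron markers, although Slc32a1 was above it in Pv batches 5, 6 and 8, Pvalb in batch 5 and Gad1 in batch 6. The summed level of the 10 was 9085 ± 1225 CPM in ChC and 7109 ± 1184 CPM in Pv (SD, n = 4 batches). Nkx2-1 was present in all 8 batches, at 23.8 to 81.5 CPM. Xist, the RNA of the inactive X chromosome, went against the label of 1 library: batch 6, labelled female, had 0 UMI, which allows up to 6.96 CPM, while the other 7 batches had 107 to 958 CPM, batch 5 of the same animal among them. The Y-linked genes Ddx3y, Kdm5d, Uty and Eif2s3y summed to 78.9 CPM in batch 6, the highest of the 8, but were also at 74.8 CPM in batch 3 and at 23.8 to 53.7 CPM in the others, so they did not set batch 6 apart. All 8 batches are labelled female, so Y-linked UMI do not go with the label in any of them, and their source was not tested. Because of Xist, the assignment of batch 6 to animal 3 is uncertain. Values by animal below follow the labels, and some of the results are also given without batch 6.

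Markers of other brain cells were present at levels that differed widely between batches. The 8 pyramidal neuron markers summed to 58.02, 568, 65.4 and 849 CPM in the ChC batches and 560.4, 585, 2401 and 299.8 CPM in the Pv batches. Of these markers Nrgn had the highest mean CPM, through batch 7, while Camk2a had more UMI in all (1329 against 1282). Neurod6, Tbr1 and Emx1 were at 0. The 8 astrocyte markers summed to 42.4, 318, 235 and 753 CPM in ChC and 25.5, 11.6, 954 and 206 CPM in Pv, with Slc1a2 the most abundant and Gfap at 0. In CPM, batch 7 was thus the highest in both lists, and batch 4 the highest ChC batch. Nrgn alone had 1308 CPM in batch 7, more than Pvalb or any of the 10 genes there. The 8 microglial markers reached 131 CPM in batch 4, with P2ry12 the most abundant and C1qa at 0, and 18.96 CPM or less in the other batches. The 7 oligodendrocyte markers reached 142 CPM in batch 6, of which Cnp gave 139 CPM and Mbp, the list's most abundant gene over all batches, 0 (Mag and Mobp were at 0 throughout), and the 5 endothelial markers at most 22.1 CPM (Flt1 the most abundant, Cldn5 and Ly6c1 at 0). Of the 6 markers of other interneurons, which summed to 58.02 to 1246 CPM, Cck was the most abundant and Vip was at 0.

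The balance of the lactate dehydrogenase subunits differed between the cell types, with batches that did not overlap, while the levels of the 10 genes did overlap. Ldhb made up 72.9%, 58.6%, 81.8% and 75.2% of the Ldha and Ldhb UMI in ChC batches 1 to 4. In Pv batches 5 to 8 it made up 95.1%, 84.8%, 93.8% and 92.9%. Ldhb was thus the larger part in all 8 batches, the highest ChC batch lay below the lowest Pv batch, and batches 2 and 6 were the lowest of their types.

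These shares rest on 129, 162, 1740.0 and 286 UMI of the pair in the ChC batches and 490.0, 809, 128 and 834 UMI in the Pv batches. The exact (Clopper-Pearson) 95% intervals, which cover counting error alone, ran from 50.6% to 66.3% in batch 2, the lowest ChC batch, and from 79.9% to 83.6% in batch 3, the highest. In batch 6, the lowest Pv batch, the interval was 82.1% to 87.2%, so it overlapped that of batch 3, and in batch 5, the highest, it was 92.8% to 96.8%. As a ratio, there were 1.42 to 4.51 Ldhb UMI for each Ldha UMI in the ChC batches and 5.58 to 19.4 in the Pv batches.

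The mean Ldhb share was 72.1% ± 9.76 in ChC and 91.6% ± 4.65 in Pv (SD, n = 4 batches each), a difference of -19.5 percentage points. A two-sided exact permutation test over the batches gave p = 0.0286, the smallest that 4 against 4 can give. Batches of 1 animal are not independent, and over animals the shares were 64.9% and 80.9% in ChC (animals 1 and 2) and 88.7% and 93.0% in Pv (animals 3 and 4), where the same exact test gave p = 0.333, the smallest that 2 against 2 allows. Without batch 6 the difference was -21.8 points, and the exact permutation p was 0.0571, again the smallest possible. Each tag marks 1 molecule, so UMI need not grow with transcript length; with the shares nonetheless computed from UMI per kilobase (1.77 kilobases for Ldha and 1.30 for Ldhb), the means were 77.6% ± 8.52 and 93.7% ± 3.63 (SD, n = 4).

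The table lists Ldha under 2 transcripts with identical counts, and adding them doubles the Ldha count. On that scale the Ldhb share was 57.3%, 41.5%, 69.3% and 60.2% in the ChC batches and 90.7%, 73.6%, 88.2% and 86.8% in the Pv batches. The groups were still apart, but in batch 2 the larger part was then Ldha.

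The balance could also be read in single cells. Among cells with at least 10 UMI of the pair, the median Ldhb share was 71.0%, 57.1%, 81.9% and 74.7% in the ChC batches, from 5, 7, 13 and 7 cells. In the Pv batches it was 94.4%, 85.3%, 90.9% and 94.6%, from 16, 14, 5 and 16 cells. As in the whole batches, each ChC median lay below each Pv median. A single one of the 32 ChC cells, in batch 2, had a share under 50%, at 47.6%, and 9 of the 51 Pv cells had no Ldha UMI at all. The cells of the types overlapped: the highest ChC cell was at 93.3% and the lowest Pv cell at 76.9%. Counting each cell with any UMI of the pair, Ldha exceeded Ldhb in 8 of 61 ChC cells and in 0 of 63 Pv cells. In 7 batches the shares of the cells scattered about as counting alone would give, with a chi-square per degree of freedom of 0.613 to 1.08. In batch 8 they scattered more, at 1.78. With 24 Ldha UMI in batch 5 and 8 in batch 7, added scatter could hardly be seen in those batches. Astrocytes are known for more Ldha, and the part of the astrocyte marker levels given above in the share was not tested.

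**Figure D1:**
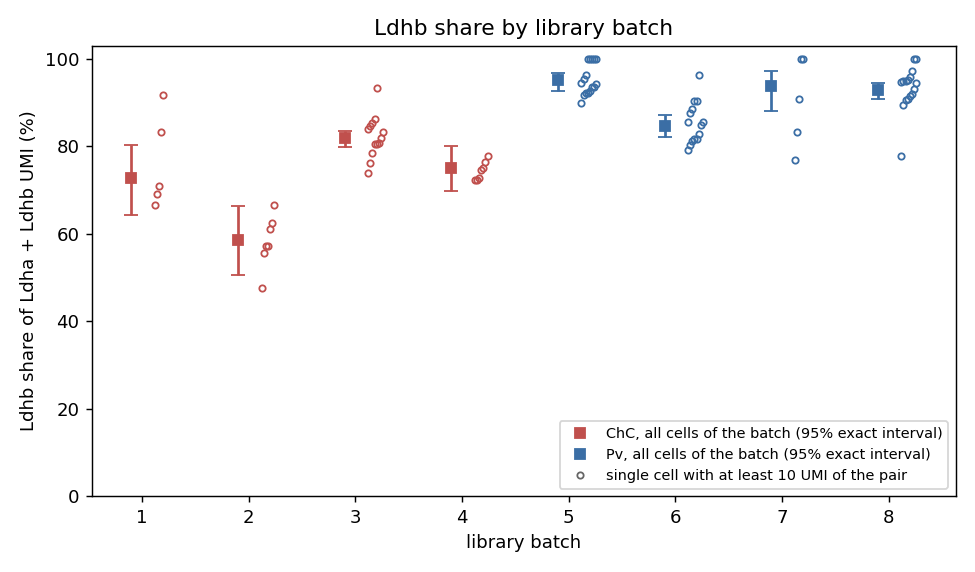
Ldhb share of the Ldha and Ldhb UMI in percent (vertical axis) for the 8 library batches (horizontal axis). Filled squares are whole batches with the exact 95% interval and open circles are single cells with at least 10 UMI of the pair; the ChC batches sit between 58.6% and 81.8% and the Pv batches between 84.8% and 95.1%.

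Of the pair, Ldhb differed more in level between the types. Ldhb had 209.8, 171, 579 and 191 CPM in ChC batches 1 to 4 and 1187, 1592, 379 and 972 CPM in Pv batches 5 to 8. A single pair of batches crossed: ChC batch 3 lay above Pv batch 7. Its mean was 288 ± 195 CPM in ChC and 1033 ± 506 CPM in Pv (SD, n = 4). Batches 5 and 6, both labelled animal 3 though Xist goes against the label of batch 6, were the highest. When the counts of each animal were added up and fitted with edgeR, the log2 fold change, ChC over Pv, was -1.78 (SE 0.63), with an unadjusted p of 0.01999 and an adjusted p of 0.657 by the Benjamini-Hochberg method. Without batch 6 the log2 fold change of Ldhb was -1.70 (SE 0.69).

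Ldha, by contrast, was low in both types and showed no clear order. It had 78.1, 120.4, 128 and 63.2 CPM in the ChC batches and 61.1, 285, 25.3 and 74.0 CPM in the Pv batches, from as few as 8 UMI in batch 7. Batch 6 held more than 3 times the level of each other Pv batch, and each of the other 3 Pv batches lay below at least 3 of the 4 ChC batches. The log2 fold change was -0.20 (SE 0.98, adjusted p = 0.999 by edgeR), and it changed sign to 0.77 without batch 6 and to 0.12 after each cell was thinned to 10000 UMI. In the thinned cells an Ldha UMI was seen in 29 of 48 ChC cells and 24 of 55 Pv cells, and without thinning in 51 of 63 and 44 of 63.

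The first enzymes of glycolysis trap and rearrange glucose. Hexokinase 1 (Hk1) phosphorylates glucose and is the main hexokinase of brain. Hk1 had 71.4, 191, 269 and 187 CPM in the ChC batches and 168, 162, 354 and 373 CPM in the Pv batches. Batches 7 and 8 of animal 4 were the highest, while the Pv batches of animal 3 lay within the ChC range. Its log2 fold change was -0.41 (SE 0.73, adjusted p = 0.989 by edgeR), and it became 0.10 without animal 4.

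Glucose phosphate isomerase (Gpi1) turns glucose 6-phosphate into fructose 6-phosphate. It had 121, 55.7, 232 and 121 CPM in the ChC batches and 199, 295, 91.6 and 181 CPM in the Pv batches. The types overlapped widely, with batch 7 below 3 of the 4 ChC batches. Its log2 fold change was -0.52 (SE 0.83, adjusted p = 0.989 by edgeR) and became 0.029 without animal 3.

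Phosphofructokinase catalyses the committed step of glycolysis, and Pfkm encodes its muscle-type subunit. Pfkm had 26.8, 46.7, 45.9 and 148 CPM in the ChC batches and 143, 188, 111 and 265 CPM in the Pv batches. Without batch 4 the ChC batches would all lie below the Pv batches; batch 4 lay above Pv batches 5 and 7. The log2 fold change was -1.70 (SE 0.91, adjusted p = 0.853 by edgeR), and ran from -2.24 without animal 2 to -0.96 without batch 3. In cells thinned to 10000 UMI, Pfkm was seen in 22 of 48 ChC cells and 45 of 55 Pv cells.

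Aldolase A (Aldoa) cleaves fructose 1,6-bisphosphate into a pair of triose phosphates. It had 125, 246, 309 and 274 CPM in the ChC batches and 471, 411, 281 and 556 CPM in the Pv batches. Here too, in CPM, a single ChC batch, batch 3, lay above a single Pv batch, batch 7. This again depends on the scaling of batch 7, given with the summed level below. The mean was 239 ± 80.0 CPM in ChC and 429.7 ± 116 CPM in Pv (SD, n = 4), and the log2 fold change was -0.87 (SE 0.60, adjusted p = 0.924 by edgeR).

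The later steps earn ATP and NADH. Gapdh oxidises glyceraldehyde 3-phosphate and makes NADH. It had 379, 717, 1107 and 627 CPM in the ChC batches and 1151, 931, 780.3 and 1405 CPM in the Pv batches. Only ChC batch 3 reached into the Pv range, and the log2 fold change was -0.53 (SE 0.48, adjusted p = 0.974 by edgeR). Gapdh is known for many processed pseudogenes, as are Ldha, Pgk1 and Pgam1, and how the authors' counting treated reads shared with such copies is not known, so these levels carry that uncertainty.

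Phosphoglycerate kinase (Pgk1, on the X chromosome) makes the first ATP of the payoff steps. Pgk1 had 270.0, 469, 401 and 187 CPM in the ChC batches and 945, 947, 243 and 305 CPM in the Pv batches. By the labels, the difference lay between animals more than between cell types: both batches of animal 3 were far above the other 6, and both batches of animal 4 were within the ChC range. Xist goes against the label of batch 6, so whether both batches labelled animal 3 came from the same animal is uncertain. The Pgk1 log2 fold change was -0.80 (SE 0.70, adjusted p = 0.973 by edgeR) and changed sign to 0.51 without animal 3. Without batch 6 alone it was -0.88 (SE 0.79).

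Phosphoglycerate mutase (Pgam1) moves the phosphate of 3-phosphoglycerate to the next carbon. Pgam1 had 174, 338, 161 and 382 CPM in the ChC batches and 535, 302, 379 and 873 CPM in the Pv batches. Batch 8 was the highest and ChC batches 1 and 3 the lowest, with the others mixed. Its log2 fold change was -1.13 (SE 0.59, adjusted p = 0.847 by edgeR).

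Enolase 2 (Eno2), the neuron-specific enolase, dehydrates 2-phosphoglycerate. It had 578, 956, 2181 and 749.7 CPM in the ChC batches and 1207, 2216, 1112 and 3239 CPM in the Pv batches. In CPM, with the transcript row of most UMI used for each gene, it was the highest of the 10 genes in each of the 8 batches. ChC batch 3 lay above Pv batches 5 and 7, and the log2 fold change was -0.75 (SE 0.47, adjusted p = 0.895 by edgeR), with -1.40 without batch 3 and -0.14 without batch 8.

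**Figure D2:**
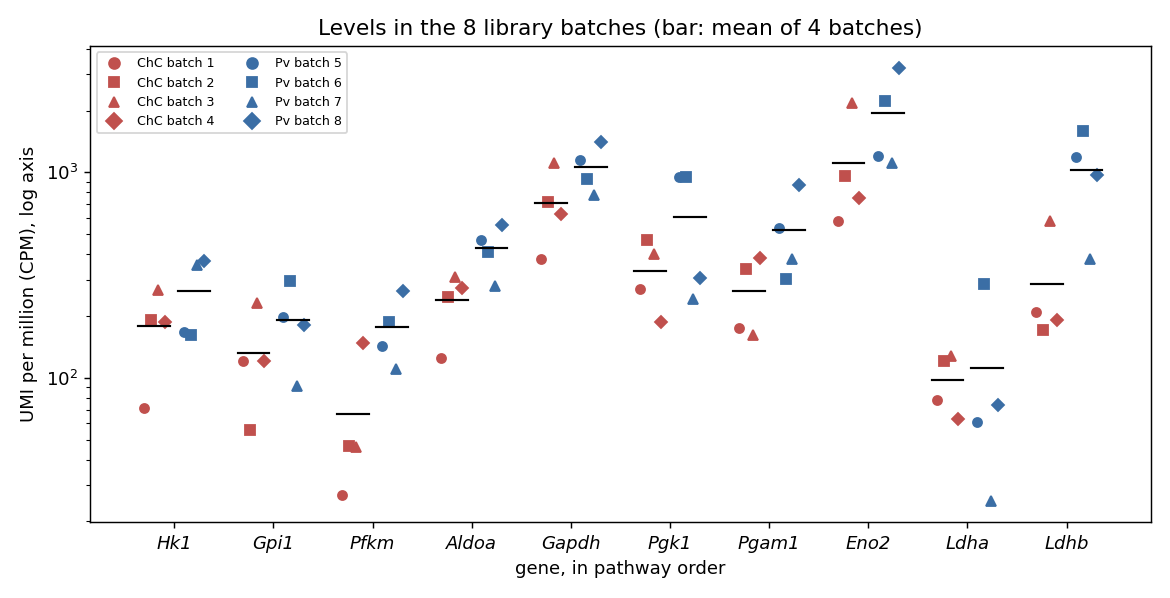
Level of each of the 10 genes in CPM (vertical log axis), with the genes in pathway order and the lactate dehydrogenase subunits last. Each marker is 1 library batch, 4 per cell type, and the black bar is their mean; Ldhb averages 288 CPM in ChC and 1033 CPM in Pv, and the batches of the types overlap for each of the 10 genes.

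Summed over the 10 genes, the level was 2033, 3311, 5413 and 2930.3 CPM in the ChC batches and 6068, 7329.5, 3756 and 8242 CPM in the Pv batches. In CPM, batch 3 was the only ChC batch above a Pv batch, which was batch 7. This order depends on scaling by the batch totals. TMM scaling of the batches gave batch 7 a factor of 1.38 and the others 0.886 to 1.02. On that scale batch 7 is lower, and further ChC batches lie above it, in the sum and for Aldoa and Gapdh. The difference of the means, ChC minus Pv, was then -2652 CPM, and -2927 CPM without TMM. The means were 3422 ± 1432 CPM in ChC and 6349 ± 1945 CPM in Pv (SD, n = 4), and 6022 ± 2243 CPM in Pv without batch 6 (n = 3). The genes therefore took 0.203% to 0.541% of all UMI in the ChC batches and 0.376% to 0.824% in the Pv batches. Batch 7, the lowest Pv batch, was also the shallowest and the one with the highest CPM of pyramidal and astrocyte markers; the part these play in its level was not tested.

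None of the 10 genes passed the threshold of an adjusted p of 0.05, and neither did any other gene: edgeR called 0 of 9681 genes tested (0%), while 618 (6.38%) had an unadjusted p under 0.05, Ldhb among them as 1 of the 10. DESeq2 called 156 of the same 9681 genes, none of them one of the 10. For 0 of the 10 genes were the ranges of the types separate; over all genes tested, 198 (2.05%) had all ChC batches below all Pv batches and 214 (2.21%) had them all above. All 10 fold changes were below 0, with a median log2 fold change of -0.78, whereas 48.4% of all genes tested were below 0 and their median was 0.05. The 10 genes were chosen with earlier results of these data known, and their values come from the same animals. The shared direction is therefore a description. Ldha alone changed sign after thinning, and without batch 6 the median of the 10 was -0.78 with 9 below 0. The median was -0.40 without batch 8, -0.47 without animal 1 and -0.55 without batch 4, and 7 of the 10 were below 0 without animal 3.

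**Figure D3:**
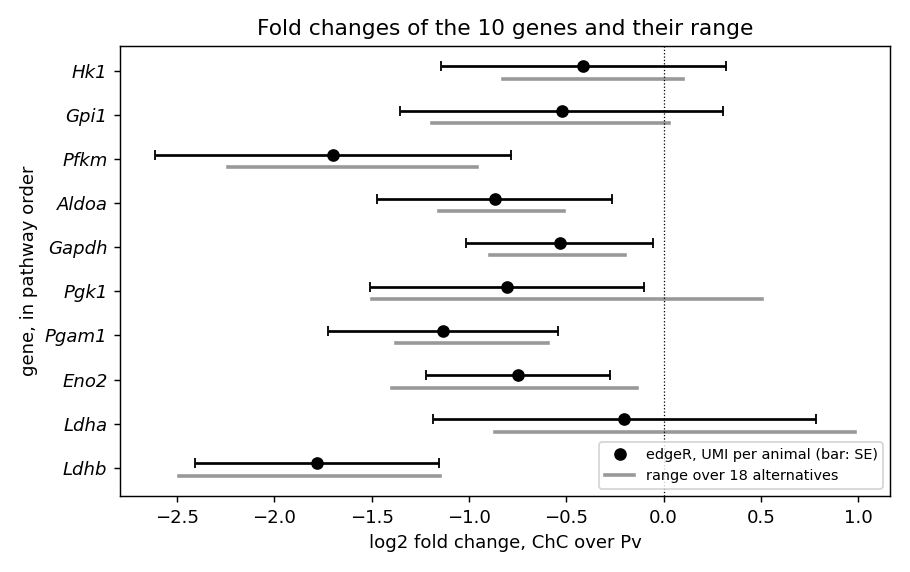
Log2 fold change of the 10 genes, ChC over Pv (horizontal axis), by edgeR on UMI summed per animal, as points with their SE. Grey bars span the 18 alternatives; those of Hk1, Gpi1, Pgk1 and Ldha cross 0, and Ldhb has the lowest value, -1.78.

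Levels of different genes were set side by side per kilobase of the longest annotated protein-coding transcript, a scale that changes the order, since UMI need not grow with length: Eno2 was above Gapdh in 8 of 8 batches in CPM and in 3 of 8 per kilobase. As a mean over the 8 batches, Gapdh had 625 ± 231 CPM per kilobase, then Eno2 with 547 ± 329.6 and Ldhb with 506 ± 409 (SD, n = 8). The order of these 3 differed between the types, with Gapdh (498 ± 213) above Ldhb (221 ± 149) in ChC and Ldhb (792 ± 388) above Gapdh (751 ± 192) in the Pv mean, in CPM per kilobase (SD, n = 4). This difference in order rests on batch 6. Without it the Pv means were 846.1 CPM for Ldhb and 1112 CPM for Gapdh. At lengths of 1.30 and 1.42 kilobases, that puts Gapdh above Ldhb in Pv too. Over all batches the 3 genes did not differ beyond their spread: Gapdh was above Eno2 in 5 of 8 batches and Eno2 above Ldhb in 6 of 8. Pgk1 (258 ± 168), Aldoa (216 ± 88.7) and Pgam1 (215 ± 125) formed a middle group in the same unit, again without a fixed order. The lowest were Gpi1 (79.5 ± 38.9), Ldha (59.2 ± 45.4), Hk1 (51.9 ± 23.97) and Pfkm (42.2 ± 28.3 CPM per kilobase), and Pgam1 lay above Gpi1 in 7 of 8 batches. On this scale the entry enzymes Hk1, Gpi1 and Pfkm were thus among the lowest 4, and the order within each of the 3 groups did not hold from batch to batch. The order also depends on using the transcript row with the most UMI. Adding the rows raises Aldoa from 2155 to 6465 UMI, Pfkm from 700 to 2100, Hk1 from 1555 to 3080 and Ldha from 703 to 1406.

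Spread between the cells of a batch was measured as a chi-square divided by its degrees of freedom, with the depth of each cell taken into account, where 1 means counting noise alone and only genes with 100 or more UMI in a batch enter. Gapdh had 1.76, 1.29, 1.95 and 0.999 in the ChC batches and 3.55, 2.44, 4.12 and 5.52 in the Pv batches. In the ChC batches it lay above 90.0%, 70.9%, 94.9% and 45.4% of the genes so measured, and in the Pv batches above 99.5%, 97.8%, 97.8% and 99.7%. Gapdh was thus near the top in each Pv batch but not in ChC batch 4. Ldhb had a median of 0.738 over the 6 batches where it could be measured, but ranged from 0.671 to 1.83, the highest in batch 6, where it lay above 91.0% of genes. Eno2 ranged from 0.616 to 4.28 over 8 batches and was above Gapdh in batch 3. The median over those of the 10 genes that entered (3 in batch 1, all 10 in batch 3 alone, and 5 to 9 in the others) averaged 1.21 ± 0.28 (SD, n = 8 batches), or 1.199 ± 0.30 without batch 6, beside 1.07 ± 0.08 for the median over all genes. The measure grows with the number of UMI, so genes of different depth are not on an equal footing.

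The genes varied together between cells only weakly. The mean Spearman correlation over the 45 pairs of the 10 genes, from CPM across the cells of a batch, was 0.06 ± 0.05 (SD, n = 8 batches), with a highest value of 0.152 in batch 3 and a lowest of 0.000386 in batch 8. It was 0.05 ± 0.05 without batch 6. The mean over all pairs of deeper genes, taken by the same limit of 100 UMI as the spread, was 0.04 ± 0.03. The 10 genes were above this mean in 4 of 8 batches. No such limit was put on the 10 genes: Ldha had 8 UMI in batch 7 and Pfkm 12 in batch 1. The comparison therefore sets some sparse genes beside deeper ones, in the thinned and undivided values below too. With cells thinned to 10000 UMI the mean over the 10 genes was 0.018 ± 0.066, now below the 0.035 ± 0.045 of all pairs, and above it in 3 of 8 batches. In UMI not divided by the cell total the mean was 0.776 ± 0.144, beside 0.827 ± 0.094 for all pairs; undivided UMI also carry the depth of the cell. Gpi1 with Ldhb was the pair with the highest mean, 0.307 ± 0.096, and was above 0 in 8 of 8 batches; in counts this sparse such values are a description.

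Across the 8 batches, the genes outside the pathway and marker lists whose levels were most like the mean of the 10 were Atp5j2 (Pearson r = 0.958), Nudcd3 (0.955), Prdx2 (0.9497), Cntn6 (0.944) and Clec16a (0.939), from 2451 candidates with a mean of at least 100 CPM. The r is taken over log2(CPM + 10) in 8 batches that fall into 2 cell types, so it is a measure of likeness, with no test. Atp5j2, a subunit of the mitochondrial ATP synthase, had 244 ± 109 CPM in ChC and 478 ± 192 CPM in Pv, and Prdx2, a peroxiredoxin that removes peroxide, had 143 ± 104 and 289.6 ± 102.9 CPM (SD, n = 4).

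The rest of the pathway was taken from lists of 67 further genes, of which 66 had any UMI (Pgk2, a testis gene, had 0) and 44 passed the filter on low counts. None was called by edgeR or by DESeq2, 2 had an unadjusted p under 0.05, 24 lay below 0 and 20 above, and the median log2 fold change was -0.20. Of 8 isoenzymes and missing steps tested, 5 were below 0, and the most abundant was triose phosphate isomerase (Tpi1), which completes glycolysis between aldolase and Gapdh. Tpi1 had 408 ± 96.3 CPM in ChC and 905 ± 292 CPM in Pv (SD, n = 4), with a log2 fold change of -1.15 (SE 0.50, adjusted p = 0.769 by edgeR). Of the NADH shuttle genes, which carry reducing power into mitochondria, 7 of 8 tested were below 0, with a median of -0.98, and the most abundant was Mdh2 (1041 ± 855 CPM in ChC, 1367 ± 442 CPM in Pv).

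In the other branches the directions differed from list to list. All 4 tested genes of glycogen turnover were above 0 (median 0.56, none called), with Pygb, the brain glycogen phosphorylase, the most abundant at 157 ± 142 CPM in ChC and 63.5 ± 33.1 CPM in Pv (SD, n = 4). The log2 fold change of Pygb was 1.70, and 0.62 without ChC batch 2. Of the 4 transport genes tested 3 were above 0, and Mpc2 of the mitochondrial pyruvate carrier was the most abundant of the list. The pentose phosphate genes split 3 to 3, with Tkt the most abundant, and the regulators 5 below to 4 above, with 9630033F20Rik (the older name of Tigar) the most abundant. In the pyruvate dehydrogenase complex 3 of 5 were below 0, and Pdha1 had the most UMI in all (858), though not the highest mean CPM, at 129 ± 100.4 CPM in ChC and 81.0 ± 58.8 CPM in Pv.

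For 4 of the genes the balance with another isoenzyme of the same step was looked at after the values were seen, with no test. Pfkm made up 19.7%, 13.4%, 18.4% and 73.8% of the Pfkm and Pfkp UMI in the ChC batches and 65.1%, 97.6%, 85.4% and 72.0% in the Pv batches. In ChC the platelet-type subunit Pfkp was thus the larger part in 3 of 4 batches, and batch 4 lay within the Pv range. Aldoa made up 79.6% to 100% of Aldoa and Aldoc in the ChC batches and 59.7% to 90.8% in the Pv batches, which overlapped. Aldoc, the brain aldolase that is high in astrocytes, had 0 to 70.3 CPM in the ChC batches and 41.8 to 198 CPM in the Pv batches, with ChC batch 4 above Pv batch 6. Eno2 made up 51.8% to 81.8% of Eno2 and Eno1 in ChC and 68.6% to 86.8% in Pv, so those ranges overlapped. Hk1 made up 86.5% to 98.8% of Hk1 and Hk2 in ChC and 94.6% to 100% in Pv.

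The promoter windows of the 10 genes were searched for the letters ACGTG on either strand. They are a form of the core of the site that hypoxia-inducible factors bind upstream of many glycolytic genes. Other forms of that core were not searched for, so a window without these letters may still hold the core. The windows run from 250 bases before to 50 bases after each start in RefSeq, build GRCm38.p6, and all 10 genes matched, with 17 windows. The letters were in 9 of these 17 windows, some of which overlap (a pair of Aldoa windows, for example), beside 19.6% of all 32851 windows. They were in at least 1 window of 7 of the 10 genes, beside 21.8% of all 27025 genes with a window, and the 10 genes have up to 4 windows each. The Ldha window chr7:46845554-46845853 (strand +) held them in 3 stretches, of which 2 read CACGTG, its own reverse complement. The other Ldha window, chr7:46846832-46847131 (strand +), held none, nor did the Ldhb window chr6:142507908-142508207 (strand -). The first Ldha window and the Ldhb window are shown because the balance of these genes is described above, with the letters and their reverse complement in capitals; a match is a description and not a bound site.
Ldha: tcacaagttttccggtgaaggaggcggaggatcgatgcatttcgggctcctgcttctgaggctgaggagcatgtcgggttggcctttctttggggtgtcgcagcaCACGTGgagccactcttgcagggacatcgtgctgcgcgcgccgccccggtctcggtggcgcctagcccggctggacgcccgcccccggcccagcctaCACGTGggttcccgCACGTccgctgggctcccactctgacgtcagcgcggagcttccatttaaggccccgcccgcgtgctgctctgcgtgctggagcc
Ldhb: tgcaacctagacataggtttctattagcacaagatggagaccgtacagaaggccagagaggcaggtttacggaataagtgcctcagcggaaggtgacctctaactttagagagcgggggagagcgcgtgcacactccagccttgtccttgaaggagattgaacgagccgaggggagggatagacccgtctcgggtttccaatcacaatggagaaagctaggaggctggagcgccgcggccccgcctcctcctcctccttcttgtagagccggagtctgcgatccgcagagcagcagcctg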

How the data were processed

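The authors aligned reads to mm9 with Bowtie 0.12.7, counted each varietal tag on a gene once, and deposited these counts per transcript and cell with no normalization. The 10 genes and the lists were chosen with earlier results of these data known. The plan was to add the transcript rows of a gene, but 1295 of the 2641 gene names with more than 1 row (49.0%) repeat identical counts in each row, so the row with the most UMI was used and the sum became an alternative. The 2 cells without UMI (1 in batch 4 and 1 in batch 6) were left out. UMI were summed over the cells of each animal and compared with edgeR 4.0.16 in R 4.3.3 (quasi-likelihood test, TMM, filter on low counts, threshold 0.05 after Benjamini-Hochberg adjustment). DESeq2 1.42.0 was an alternative. Shares, exact permutation tests and correlations used Python 3.11.15 with scipy 1.17.1. Transcript lengths came from GENCODE M1. The edgeR step was tested on simulated counts with large changes, a check of the code and not of its power in these data. Cells with fewer than 10000 UMI (15 ChC and 8 Pv) were left out of thinned values. Named genes are the 10, the gene with the most UMI of each pathway list, the 5 most similar genes, the markers and the Y-linked genes. Pfkp, Aldoc, Eno1, Hk2, Pdhb, Slc2a3, Slc2a1, Bpgm and Mdh1 were added after their values were seen. Pgk2 is named because it had no UMI. No cell name was shared between batches.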

Additional observations from a re-analysis of the deposited data

Results flagged for a closer look

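Each of the 10 genes, the Ldhb share and the summed level were looked at for a batch far from the other 3 of its cell type, in 24 groups of 4. In 2 of them the gap to the nearest batch passed Dixon's 95% critical value; chance alone gives about 1 in 20.

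Ldhb in ChC batch 3 was at 579 CPM, while the other ChC batches lay between 171 and 209.8 CPM. Batch 3 was the deepest library. Pfkm in ChC batch 4 was at 148 CPM, while the other ChC batches lay between 26.8 and 46.7 CPM. Batch 4 was also the ChC batch with the highest CPM of microglial, astrocyte, pyramidal and oligodendrocyte markers and of markers of other interneurons (1246 CPM, with Reln at 485 and Npy at 415). The part of depth or of these markers in either value was not tested.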

How the results depend on the processing

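None of the 10 genes passed the threshold under any of the 18 alternatives, and the lowest adjusted p of Ldhb was 0.0735 (without animal 4; its alternatives ran up to 0.9999). The log2 fold changes of Pfkm, Aldoa, Gapdh, Pgam1, Eno2 and Ldhb stayed below 0 throughout, from -2.24 to -0.96, -1.15 to -0.51, -0.89 to -0.20, -1.37 to -0.59, -1.40 to -0.14 and -2.49 to -1.15, and their order by size changed: that of Pfkm exceeded that of Ldhb without batch 2, batch 4 or animal 3. Ldha changed to 0.12 with thinned cells, and ran from -0.86 (without animal 4) to 0.99 (without animal 3) when a batch or animal was left out, with 0.77 without batch 6. In the same way Pgk1 ran from -1.50 (without animal 4) to 0.51 (without animal 3), Gpi1 from -1.19 to 0.029 (without animals 2 and 3) and Hk1 from -0.81 to 0.10 (without animals 2 and 4). Of the other genes named, Mpc2 ran from -0.084 to 0.47, Mdh2 from -1.37 to 0.30, 9630033F20Rik from -2.08 to 0.94 and Tkt from -3.73 to 2.10. Without a change of sign, Pygb ran from 0.62 to 2.23, Pdha1 from 0.20 to 1.91 and Tpi1 from -1.37 to -0.81. The cause was not tested.

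The count of genes called by edgeR, 0, was 156 with DESeq2, 84 without the filter on low counts, 6 with batches as samples, 0 to 2 without 1 batch, and 15, 60, 14 and 96 without animals 1 to 4, where the lone animal of a type is assumed to vary like the other type. It stayed at 0 without TMM, with summed transcripts and with thinned cells.

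The Ldhb share differed by -17.9 points over animals (exact permutation p = 0.333) and by -22.7 to -15.02 points when 1 batch was left out (p = 0.0571); these designs cannot pass the threshold, and the ranges stayed apart in each. It was -27.8 points with summed transcripts and -18.3 over cells with at least 10 UMI of the pair, each with equal weight. The share difference was -19.4 with thinned cells and -16.03 per kilobase, a choice made after the data were seen. The mean correlation of the 10 genes was 0.776 in undivided UMI and 0.018 in thinned cells, where it lay below that of all pairs of deeper genes. The summed level and the spread moved by less than 1 SD under their alternatives. No paired analysis was possible because the cell types share no animal or batch number. With 8 Ldha UMI in batch 7 and 2 animals of each type, small differences in single genes may have been missed. The size of difference that could be detected is not given here.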

Other observations

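One gene of the pathway lists had ranges that did not overlap between the types, and it is named because its values were seen: Pdhb, the E1 beta subunit of pyruvate dehydrogenase. That is 1 of 44 tested (2.27%), beside 4.26% of all genes tested, so it is no more than the background. It had 36.8 ± 17.4 CPM in ChC, from 16.2 to 53.4, and 207 ± 146 CPM in Pv, from 91.6 to 413 (SD, n = 4 batches). Its partner in the same enzyme, Pdha1, had ranges that overlapped widely. The edgeR log2 fold change of Pdhb was -2.62 (SE 0.96, adjusted p = 0.661).

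The neuronal glucose transporter Slc2a3 had 142 ± 131 CPM in ChC and 87.7 ± 64.5 CPM in Pv (SD, n = 4), while Slc2a1, the transporter of endothelium and astrocytes, was at 12.6 CPM or less in each batch. Bpgm, which makes 2,3-bisphosphoglycerate, had 52.5 ± 37.1 CPM in ChC and 5.64 ± 11.3 CPM in Pv. Mdh1, the cytosolic malate dehydrogenase of the NADH shuttle, had 447 ± 220.2 CPM in ChC and 946 ± 362 CPM in Pv. None of these genes was past the threshold, and they were chosen after their values were seen.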
